A study of Mus musculus with 16 samples.

Results

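The p53 effector genes are genes that carry out the cell's answer once the transcription factor p53 has been activated, and 40 of them were followed gene by gene in mouse neural cells exposed to strobilurin fungicides. They were taken from the count tables by gene symbol and sorted by what they are known for. There were 12 genes of apoptosis, 8 of DNA repair, 6 of the cell cycle, 5 of signalling and 6 of metabolism and transport. The other 3 were receptors of the tumour necrosis factor receptor family, grouped here as death receptors. All 40 had a row among the 54658 genes of the tables, and 38 had a mean of 1 CPM (counts scaled to a fixed library total) or more over the distinct libraries, the level set for entering a test. The 2 genes below it were Perp, with 0.0117 CPM on average and 0 or 1 read in each library, and Gdf15, with 0.183 CPM, while the lowest gene above it was Ddb2 with 4.53 CPM. The genes were selected on the measured rise of p53 targets in these libraries, so the rise under pyraclostrobin at the higher concentrations is described here without a test.

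The cells were C17.2α cells, a neural line from mouse cerebellum that overexpresses the thyroid hormone receptor TRα1, grown in hormone-stripped newborn calf serum without added thyroid hormone. They were exposed for 24 h to azoxystrobin (1000 nM), picoxystrobin, pyraclostrobin or trifloxystrobin (30, 100, 300 and 1000 nM each) or to the solvent DMSO alone, and total RNA was sequenced as 1 library for each concentration and 2 for DMSO. All 4 fungicides block the cytochrome bc1 complex of the mitochondrial respiratory chain; their toxophore is a methoxyacrylate in azoxystrobin and picoxystrobin, a methoxycarbamate in pyraclostrobin and an oximinoacetate in trifloxystrobin. A further table labelled azoxystrobin 100 nM held the same count as the second DMSO library in every gene, so it was left out and 15 distinct libraries remained. Which of these labels is right is not given in the sources used here. If the shared table were azoxystrobin, DMSO would have a single library and no DMSO mean, range or SD below would hold as given. Without that table the contrasts with DMSO rest on a single DMSO library, whose spread is then taken from the other groups. Genes called then carry little weight, and the pyraclostrobin calls given below were lost, in genes at large too. Their depth was 12292390 to 18188099 reads counted to genes. No concentration was repeated, so concentrations of a compound stood in for replicates in the tests, and the labels do not say whether the DMSO libraries came from separate cultures.

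When DNA is damaged or nucleotides, ribosomes or the spindle are disturbed, p53 escapes degradation by its ubiquitin ligase MDM2 and binds paired half-sites in the DNA of its target genes. Its effectors then push in several directions at once: BH3-only proteins and death receptors towards apoptosis, repair enzymes and nucleotide supply towards survival, and mitotic and signalling factors towards a halt of the cycle. In neural progenitors the same pathway is known for removing damaged cells and for limiting self-renewal.

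Neural progenitor transcripts were present in every library, with Nes at 137 to 203 CPM, Vim at 2505 to 3215 CPM and Sox2 at 34.1 to 46.8 CPM, whereas Pax6 was at 0.0 to 0.1 CPM. Of the 5 neuron markers read, Rbfox3, Syt1 and Snap25 stayed under 0.6 CPM in every library, Syn1 was at 1.3 to 2.5 CPM and Map2, the microtubule-associated protein of dendrites, at 108 to 161 CPM. Of the 5 leukocyte markers, Ptprc and Itgam had no read, Aif1 and Cx3cr1 stayed under 0.2 CPM, and Cd68, a lysosomal protein, was at 1.8 to 4.0 CPM, highest at 1000 nM picoxystrobin. The collagen genes Col1a1 and Col3a1 of mesenchymal cells were high in every library. Col1a1 was below both DMSO libraries (4057 and 4706 CPM) in every exposed library, by least at 30 nM trifloxystrobin (4051 CPM). It was lowest at 300 and 1000 nM pyraclostrobin (1895 and 1738 CPM), followed by 1000 nM picoxystrobin (2671 CPM). Its part in the values below was not tested. In bulk RNA, fewer cells of a kind and less RNA per cell cannot be told apart.

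With pyraclostrobin, the effector genes stood near the DMSO level at 30 and 100 nM and above it at 300 and 1000 nM. The median log2 change of the 38 genes from the DMSO mean was 0.07 and 0.18 at the lower concentrations and 0.67 and 0.80 at the higher ones, where all genes together had a median of 0.02 and 0.03. At 300 nM 22 of 38 effector genes were 1.5-fold or more above the DMSO mean, beside 7.95% of all 14004 genes, and at 1000 nM 21 of 38 were, beside 10.7%. At 30 nM the count was 2 (1.46% of all genes) and at 100 nM it was 1 (1.59%). The DMSO libraries differed by at most 0.40 on the log2 scale in any of the 38 genes, and by less than 1.5-fold in every one. Leaving out either DMSO library moved the counts at 300 and 1000 nM to between 20 and 22.

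**Figure D1:**
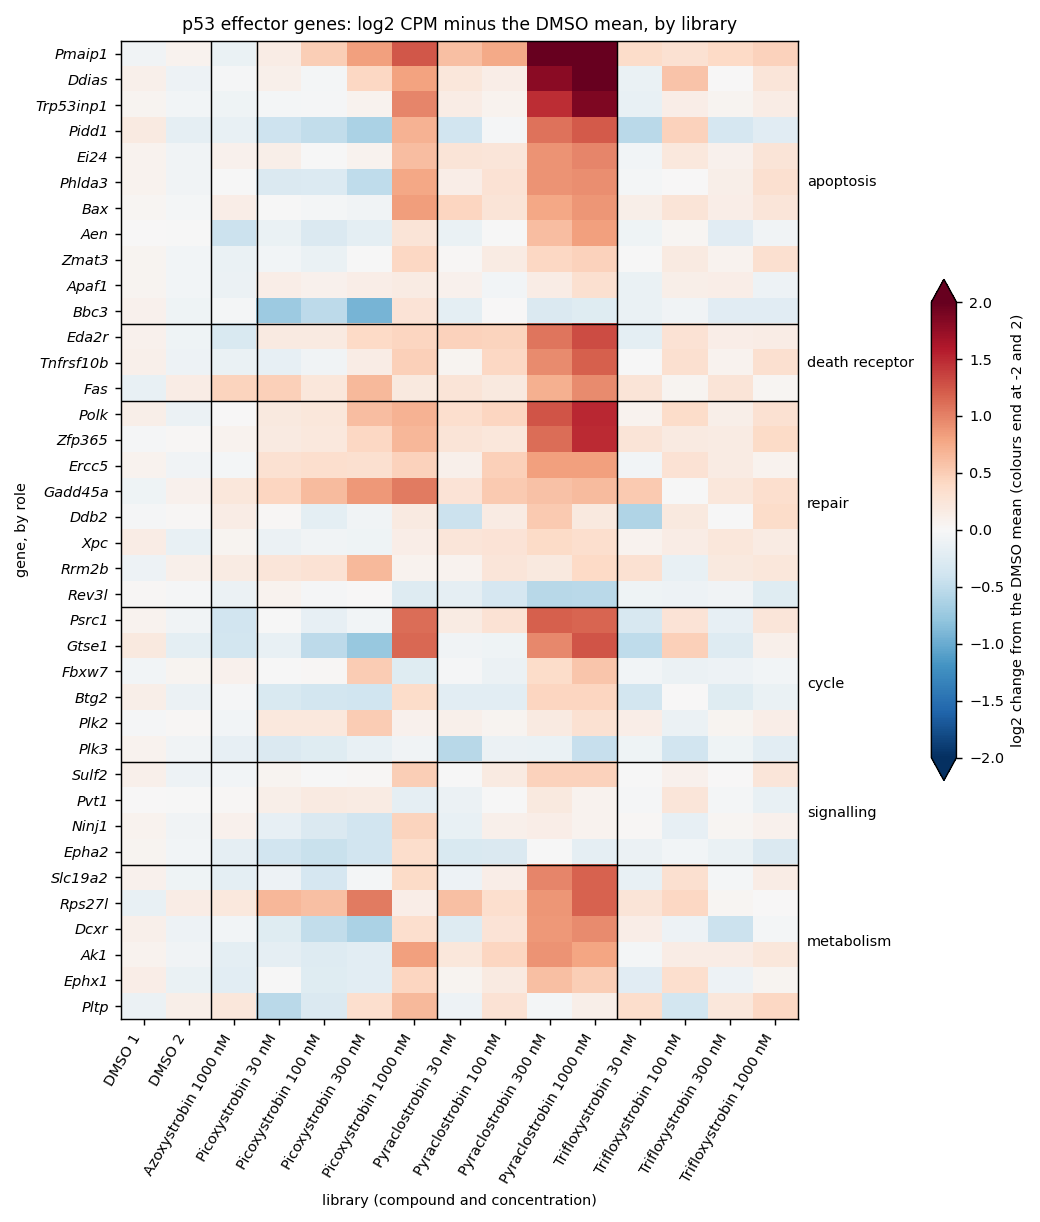
Log2 change of each of the 38 p53 effector genes (rows, by role) from the mean of the DMSO libraries in each of the 15 distinct libraries (columns), red for higher and blue for lower. The 300 and 1000 nM pyraclostrobin columns are red in most rows, with medians of 0.67 and 0.80, the 1000 nM picoxystrobin column is red in fewer (median 0.44), and the trifloxystrobin columns are pale.

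Picoxystrobin and trifloxystrobin gave other patterns at the same concentrations. With picoxystrobin the counts 1.5-fold or more above DMSO were 1, 2, 6 and 14 of 38 at 30, 100, 300 and 1000 nM, beside 1.98%, 2.39%, 9.03% and 5.68% of all genes. With trifloxystrobin no effector gene reached 1.5-fold above DMSO at 30, 100, 300 or 1000 nM, beside 1.1%, 1.44%, 0.764% and 1.66% of all genes, and with 1000 nM azoxystrobin none did, beside 1.37%. In the other direction, Bbc3 was 1.5-fold or more below DMSO at 30 nM picoxystrobin (3.73% of all genes), 4 genes (Bbc3, Pidd1, Gtse1 and Dcxr) were at 300 nM picoxystrobin (9.03%), and Ddb2 was at 30 nM trifloxystrobin (1.64%).

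**Figure D2:**
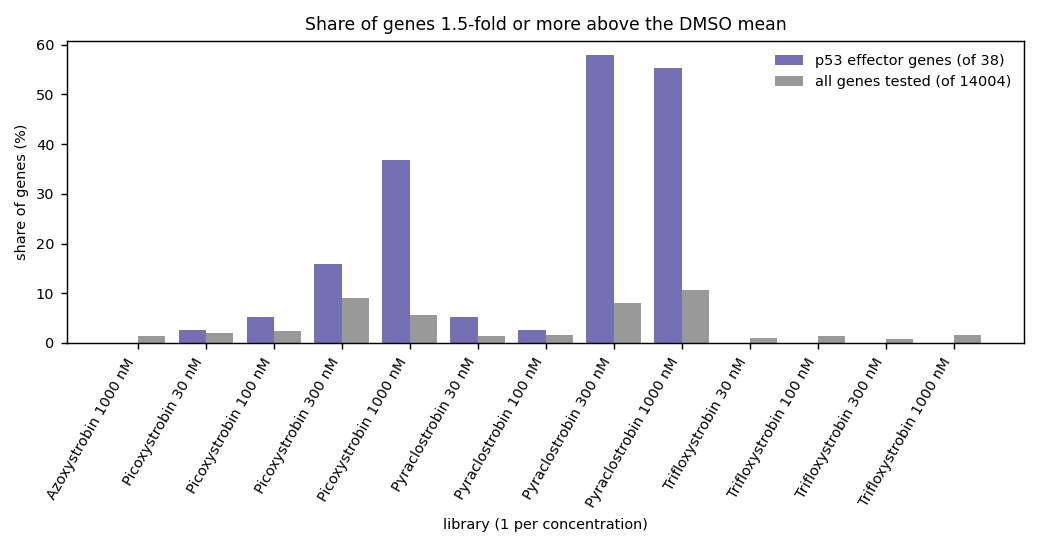
Share of the 38 p53 effector genes (violet bars) and of all 14004 genes tested (grey bars) that were 1.5-fold or more above the DMSO mean, in percent, for each exposed library. The violet bars stand far above the grey ones at 300 and 1000 nM pyraclostrobin (22 and 21 genes) and at 1000 nM picoxystrobin (14 genes), and no violet bar is drawn for trifloxystrobin or azoxystrobin because the count was 0.

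The start regions of the effector genes were searched for the p53 half-site consensus, the 10-base element that p53 binds in pairs and that reads the same on both strands. Promoter windows from RefSeq (GRCm38.p6), which reach from 250 bases before the start to 50 bases after it, were at hand for 30 of the 40 genes. An exact half-site lay in the windows of 7 of these 30 genes (23.3%), beside 9.55% of 27025 genes in all. No window of an effector gene held a full site, meaning exact half-sites side by side or separated by a short spacer. Of the 27025 genes, 20 had one. The windows leave out most of the introns, where many p53 sites are known. They follow RefSeq starts, and some of these lie inside the gene as GENCODE M21 places it. That holds for Polk, which runs from 96480690 to 96542579 on the minus strand of chromosome 13. A match shows only that these letters are there. The sequences below are shown because they are the stretches of the effector genes that carry the element p53 recognises, with the half-site in capitals and up to 10 bases on each side, 5′ to 3′ on the strand of the gene:
Gadd45a: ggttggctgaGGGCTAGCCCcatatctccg
Bax: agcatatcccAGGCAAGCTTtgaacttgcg
Aen: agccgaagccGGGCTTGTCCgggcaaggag
Ei24: cgtgcggcccGGGCATGCCCagtgtgggcg
Rps27l: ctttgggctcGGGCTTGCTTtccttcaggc
Rps27l: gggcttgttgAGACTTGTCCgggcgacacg
Polk: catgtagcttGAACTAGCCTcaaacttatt
Gtse1: gagcaagttgGGGCTTGCCTctgacttgcc
Rps27l had separate matches at chr9:66946193-66946222 and chr9:66946296-66946325 on the plus strand, 210 and 107 bases before the RefSeq start of its window. Both lie inside the gene as GENCODE M21 places it, from 66946086 on. The others lay at chr6:67037428-67037457 on the minus strand (Gadd45a), chr7:45467080-45467109 minus (Bax), chr7:78895927-78895956 plus (Aen), chr9:36797325-36797354 minus (Ei24), chr13:96519399-96519428 minus (Polk) and chr15:85859945-85859974 plus (Gtse1). All of these 7 genes were 1.5-fold or more above DMSO at 1000 nM pyraclostrobin, beside 21 of the 38 effector genes and 10.7% of all genes. So were genes whose window held no match, such as Ddias and Eda2r. The effector genes were chosen on this rise, so it tells nothing about the matches, and a link between them was not tested.

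Among the apoptosis genes, the largest change was that of Pmaip1, which codes for the BH3-only protein NOXA. The values of each compound are given in order of concentration throughout (30, 100, 300 and 1000 nM, or 1000 nM alone for azoxystrobin), scaled for library composition. The level of Pmaip1 was 3.62 and 3.98 CPM with DMSO, 3.45 CPM with azoxystrobin, 4.22, 5.39, 6.80 and 9.17 CPM with picoxystrobin, 5.79, 6.51, 22.7 and 34.4 CPM with pyraclostrobin, and 4.93, 4.72, 5.05 and 5.24 CPM with trifloxystrobin. The 300 and 1000 nM pyraclostrobin libraries thus held 5.98 and 9.05 times the DMSO mean, from 358 and 598 reads against 60 and 68, and picoxystrobin gave a smaller series that was highest at 1000 nM (2.41 times).

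Ddias, named for suppressing apoptosis after DNA damage, and Trp53inp1, a nuclear and autophagy protein that promotes p53 activity, were also highest at 1000 nM pyraclostrobin, then at 300 nM pyraclostrobin and then at 1000 nM picoxystrobin. For Ddias, pyraclostrobin gave 44.7, 41.5, 133 and 166 CPM against 40.99 and 35.3 CPM with DMSO, beside 40.6, 36.8, 50.6 and 66.6 CPM for picoxystrobin, 34.7, 56.6, 38.1 and 44.9 CPM for trifloxystrobin and 37.2 CPM for azoxystrobin. For Trp53inp1, the DMSO libraries held 194 and 179.6 CPM, the pyraclostrobin libraries 207, 195, 519 and 683 CPM, the picoxystrobin libraries 181, 183, 195 and 367 CPM, the trifloxystrobin libraries 168, 205, 194 and 207 CPM and the azoxystrobin library 176 CPM. Both had their highest value at 1000 nM pyraclostrobin (4.35 and 3.66 times the DMSO mean), and no trifloxystrobin library reached the lower of the 300 and 1000 nM pyraclostrobin values.

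Of the other apoptosis genes, Pidd1 (the PIDDosome scaffold that activates caspase-2), Ei24 (an endoplasmic reticulum protein of autophagy), Phlda3 (an inhibitor of AKT), Bax (the pore former of the mitochondrial outer membrane) and Aen (a nuclear exonuclease) changed by 0.82 to 1.23 on the log2 scale at 1000 nM pyraclostrobin. Bax overlaps Gm45808 on the same strand and Ei24 overlaps Gm26787 on the opposite strand, so reads between them could be split or lost in the counting. Zmat3, an RNA-binding zinc finger protein, and Apaf1, the scaffold of the apoptosome, stayed under 1.5-fold there, with log2 changes of 0.46 and 0.32. Taking the 11 measured apoptosis genes together, the median log2 change was 0.90 at 300 nM and 0.93 at 1000 nM pyraclostrobin, 0.70 at 1000 nM picoxystrobin and 0.24 at 1000 nM trifloxystrobin.

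Bbc3, which codes for PUMA, the other BH3-only protein of the list, went a different way from Pmaip1. Its level was 15.5 and 13.7 CPM with DMSO, 14.1 CPM with azoxystrobin, 8.78, 10.1, 7.58 and 17.6 CPM with picoxystrobin, 12.6, 14.7, 11.9 and 12.3 CPM with pyraclostrobin, and 13.2, 13.9, 12.4 and 12.4 CPM with trifloxystrobin. No pyraclostrobin library was above the DMSO range, the 30, 100 and 300 nM picoxystrobin libraries all lay below it, and the 1000 nM picoxystrobin library was the highest of the 15.

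**Figure D3:**
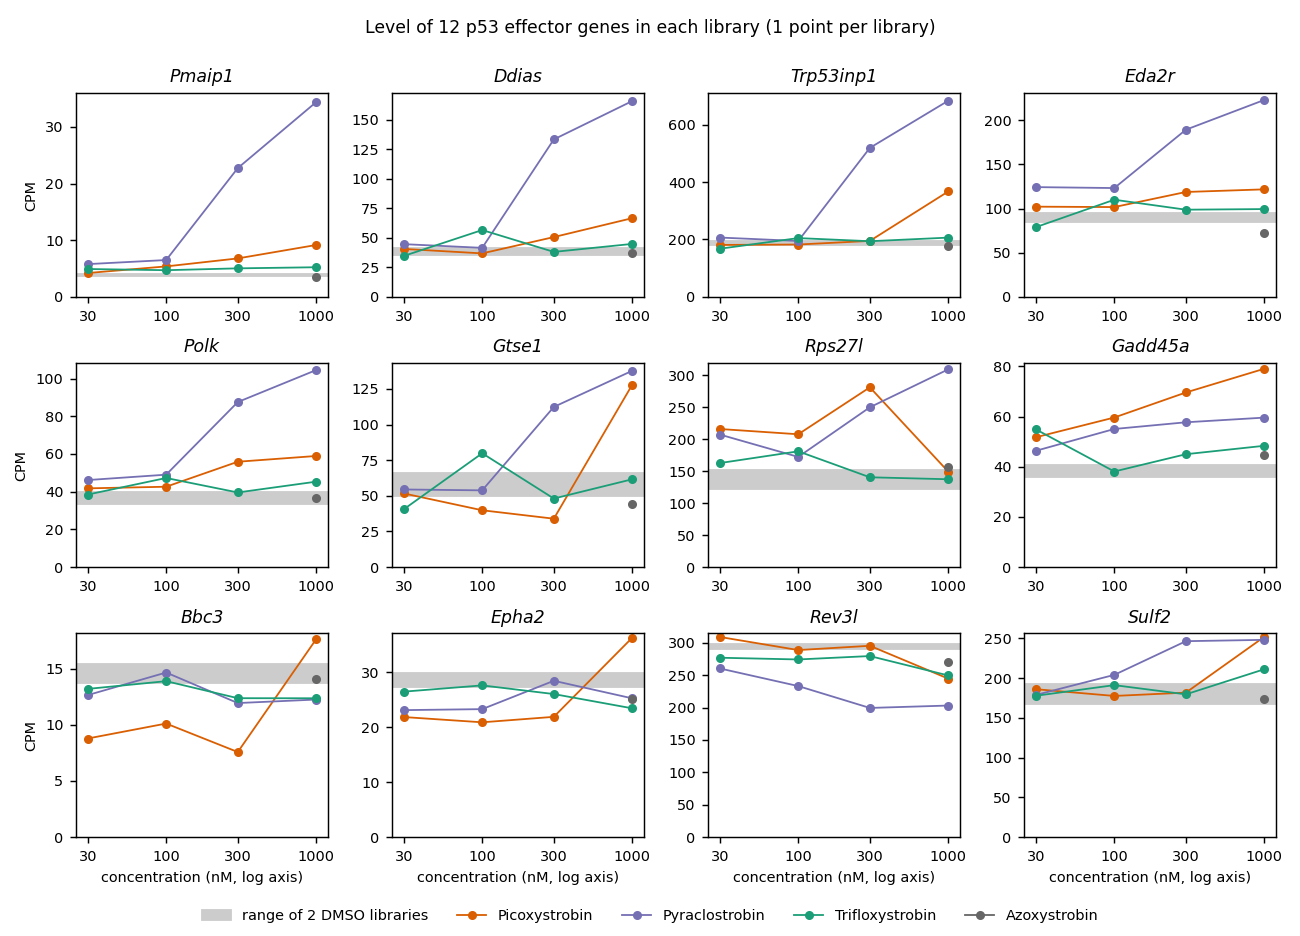
Level in CPM (vertical axis, from 0) of 12 p53 effector genes against concentration in nM (log axis), 1 point per library, with lines joining the concentrations of a compound and the grey band showing the range of the 2 DMSO libraries. Pmaip1, Ddias, Trp53inp1, Eda2r and Polk climb with pyraclostrobin between 100 and 300 nM, Gtse1 climbs with pyraclostrobin and between 300 and 1000 nM picoxystrobin, and Bbc3 and Epha2 drop below the band with 30 to 300 nM picoxystrobin.

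All 3 receptors were 1.5-fold or more above DMSO at 300 and 1000 nM pyraclostrobin, and none was at 1000 nM picoxystrobin. Eda2r binds the A2 form of ectodysplasin, Tnfrsf10b is the mouse receptor for the death ligand TRAIL, and Fas binds Fas ligand. The level of Eda2r was 95.1 and 85.2 CPM with DMSO, 72.5 CPM with azoxystrobin, 102, 102, 119 and 122 CPM with picoxystrobin, 124, 123, 189 and 223 CPM with pyraclostrobin, and 78.9, 109.99, 98.7 and 99.4 CPM with trifloxystrobin. The 30 and 100 nM pyraclostrobin libraries already stood above both DMSO libraries, and the 300 and 1000 nM libraries were the highest of all. For Tnfrsf10b, pyraclostrobin gave 26.3, 33.95, 49.2 and 58.4 CPM against 27.3 and 23.7 CPM with DMSO, beside 22.7, 24.1, 28.3 and 35.5 CPM for picoxystrobin, 25.4, 31.7, 26.8 and 31.8 CPM for trifloxystrobin and 23.3 CPM for azoxystrobin. Fas had log2 changes of 0.71 and 0.95 at 300 and 1000 nM pyraclostrobin and of 0.65 at 300 nM and 0.20 at 1000 nM picoxystrobin. At 1000 nM, pyraclostrobin exceeded picoxystrobin by 0.87 for Eda2r, 0.71 for Tnfrsf10b and 0.75 for Fas on the log2 scale, each from 1 library of either compound.

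The repair genes divided. Polk (the translesion DNA polymerase kappa), Zfp365 (a zinc finger protein of genome stability), Ercc5 (the XPG endonuclease of nucleotide excision repair) and Gadd45a (a stress sensor of growth arrest and repair) were 1.5-fold or more above DMSO at 300 and 1000 nM pyraclostrobin. For Polk, the DMSO libraries held 39.8 and 33.5 CPM, the pyraclostrobin libraries 46.2, 49.02, 87.6 and 105 CPM, the picoxystrobin libraries 41.8, 42.6, 55.9 and 58.9 CPM, the trifloxystrobin libraries 38.5, 47.3, 39.6 and 45.3 CPM and the azoxystrobin library 36.7 CPM. For Zfp365, pyraclostrobin gave 114, 111, 207 and 267 CPM against 93.7 and 96.4 CPM with DMSO, beside 107, 109.5, 126 and 150.4 CPM for picoxystrobin, 114, 107, 107 and 123 CPM for trifloxystrobin and 100.3 CPM for azoxystrobin. The level of Ercc5 was 16.7 and 15.1 CPM with DMSO, 15.4 CPM with azoxystrobin, 19.6, 20.1, 19.9 and 21.9 CPM with picoxystrobin, 17.003, 22.1, 28.2 and 28.01 CPM with pyraclostrobin, and 15.3, 19.5, 17.8 and 16.8 CPM with trifloxystrobin. In all 3 genes the 300 and 1000 nM pyraclostrobin libraries were the highest of the 15, at 1.76 to 2.85 times the DMSO mean at 1000 nM.

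The damage sensors of nucleotide excision repair moved less. Xpc, which recognises distorted DNA, had log2 changes of 0.38 and 0.34 at 300 and 1000 nM pyraclostrobin, and Ddb2, which recognises ultraviolet lesions, had 0.52 and 0.20 at 4.53 CPM on average. Rrm2b, the p53-induced small subunit of ribonucleotide reductase, had 0.20 and 0.39. Rev3l, the catalytic subunit of the translesion polymerase zeta, was the effector gene lowest against DMSO at 300 and 1000 nM. Its level was 298 and 289.8 CPM with DMSO, 271 CPM with azoxystrobin, 309, 289, 295 and 245 CPM with picoxystrobin, 260.3, 233, 199 and 203 CPM with pyraclostrobin, and 277, 274, 279 and 249 CPM with trifloxystrobin. All 4 pyraclostrobin libraries lay below both DMSO libraries, with 0.68 and 0.69 times the DMSO mean at 300 and 1000 nM.

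In the cell cycle group, Psrc1, a microtubule-associated protein of the mitotic spindle, and Gtse1, which binds microtubules and p53 in S and G2 phase, were the highest. The level of Psrc1 was 29.9 and 27.1 CPM with DMSO, 21.9 CPM with azoxystrobin, 28.3, 25.5, 27.5 and 61.95 CPM with picoxystrobin, 31.95, 34.6, 65.4 and 63.7 CPM with pyraclostrobin, and 22.8, 34.2, 25.4 and 33.6 CPM with trifloxystrobin. For Gtse1, the DMSO libraries held 65.98 and 49.996 CPM, the pyraclostrobin libraries 54.4, 53.8, 112 and 138 CPM, the picoxystrobin libraries 51.7, 39.8, 33.9 and 128 CPM, the trifloxystrobin libraries 40.5, 79.9, 48.1 and 61.6 CPM and the azoxystrobin library 44.3 CPM. Here 1000 nM picoxystrobin came close to 1000 nM pyraclostrobin (2.18 against 2.24 times the DMSO mean for Psrc1, 2.21 against 2.38 for Gtse1), while Gtse1 at 300 nM picoxystrobin was the lowest of all libraries. Gtse1 was also the gene in which the DMSO libraries were farthest apart.

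Btg2, an adaptor of mRNA deadenylation, Plk2, a polo-like kinase, and Fbxw7, the substrate receptor of the ubiquitin ligase for cyclin E, had log2 changes of 0.42, 0.31 and 0.56 at 1000 nM pyraclostrobin. Plk3, a polo-like kinase of the stress response, was among the lowest effector genes there. Its level was 10.7 and 9.59 CPM with DMSO, 9.03 CPM with azoxystrobin, 8.24, 8.50, 9.13 and 9.68 CPM with picoxystrobin, 6.85, 9.36, 9.21 and 7.30 CPM with pyraclostrobin, and 9.56, 7.74, 9.54 and 8.74 CPM with trifloxystrobin. Its 1000 nM pyraclostrobin library held 0.72 times the DMSO mean and its 300 nM library 0.91 times.

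The signalling genes had the lowest median of the 6 roles at 300 and 1000 nM pyraclostrobin, 0.16 and 0.07 on the log2 scale. Sulf2, a sulfatase that trims heparan sulfate outside the cell, and Pvt1, a long noncoding RNA next to Myc, were the highest of the 4 that were measured. For Sulf2, pyraclostrobin gave 179, 204, 247 and 248 CPM against 192 and 168 CPM with DMSO, beside 186, 178, 182 and 252 CPM for picoxystrobin, 178, 191, 179.6 and 211 CPM for trifloxystrobin and 173 CPM for azoxystrobin. For Pvt1, the DMSO libraries held 21.2 and 21.2 CPM, the pyraclostrobin libraries 19.6, 21.1, 24.4 and 22.3 CPM, the picoxystrobin libraries 23.1, 24.003, 23.8 and 18.8 CPM, the trifloxystrobin libraries 20.9, 25.03, 20.6 and 19.1 CPM and the azoxystrobin library 21.7 CPM. Sulf2 was at 1.37 and 1.38 times the DMSO mean at 300 and 1000 nM pyraclostrobin and at 1.40 times at 1000 nM picoxystrobin, and Pvt1 at 1.15 and 1.05 times with pyraclostrobin. Ninj1, a surface protein of membrane rupture, had log2 changes of 0.13 and 0.08 at 300 and 1000 nM pyraclostrobin and of 0.44 at 1000 nM picoxystrobin.

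In the metabolism group, Slc19a2, a thiamine transporter, and Rps27l, a ribosomal protein close in sequence to Rps27, led. The level of Slc19a2 was 58.2 and 51.3 CPM with DMSO, 47.9 CPM with azoxystrobin, 51.1, 43.1, 53.03 and 71.3 CPM with picoxystrobin, 51.01, 60.1, 108 and 124 CPM with pyraclostrobin, and 49.4, 67.9, 53.2 and 60.8 CPM with trifloxystrobin. For Rps27l, pyraclostrobin gave 207, 172, 249.98 and 309 CPM against 122 and 151 CPM with DMSO, beside 216, 208, 281 and 149 CPM for picoxystrobin, 163, 181, 140.4 and 137 CPM for trifloxystrobin and 157 CPM for azoxystrobin. Slc19a2 was highest at 300 and 1000 nM pyraclostrobin, and Rps27l was above both DMSO libraries at every pyraclostrobin concentration and at 30, 100 and 300 nM picoxystrobin but not at 1000 nM. Reads of Rps27l could be shared with its paralogue. Ak1 (adenylate kinase) and Dcxr (a dicarbonyl reductase) had log2 changes of 0.78 and 0.94 at 1000 nM pyraclostrobin, Ephx1 (microsomal epoxide hydrolase) 0.60 at 300 nM and 0.50 at 1000 nM, and Pltp (phospholipid transfer protein) -0.03 and 0.11.

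Between 300 and 1000 nM pyraclostrobin the values moved little beside the step from 100 to 300 nM. Of the 21 genes 1.5-fold or more above DMSO at 1000 nM, 18 were higher at 1000 than at 300 nM. The difference was 0.59 on the log2 scale for Pmaip1, 0.40 for Trp53inp1 and 0.31 for Ddias. With the 4 pyraclostrobin concentrations fitted as 1 level against DMSO, 9 effector genes were higher (Bax, Pmaip1, Ei24, Eda2r, Ercc5, Gadd45a, Polk, Ak1 and Rps27l) and 1 was lower (Rev3l) at an adjusted p under 0.05, beside 3.35% of all genes higher and 5.25% lower. Because this rise chose the genes, the count describes them and supports nothing. The 10 calls fell to 0 without the first DMSO library (0.0143% of all genes), without the second (0%) and without the 300 nM library (0.871%), and to 2 without the 1000 nM library (3.18%). They were 21 and 18 without the 30 and the 100 nM library, where 17.3% and 20.1% of all genes were called.

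Whether the other compounds moved the same genes could be tested, since those contrasts had not chosen them. Trifloxystrobin did not differ detectably from DMSO in any of the 38 effector genes by edgeR's quasi-likelihood test, with 4 libraries against 2 (0 called, beside 0% of all genes). The lowest adjusted p was 0.9996, no effector gene had an unadjusted p under 0.05 (444 of all genes had), and DESeq2 also called 0. The fitted log2 changes ran from -0.19 to 0.39 with a median of 0.08, beside 0.00 over all genes. The largest was that of Pmaip1, 0.39 with a 95% interval from -0.89 to 1.67, so a change of the size seen with pyraclostrobin at 30 and 100 nM lies inside the interval. The spread of this fit also took in the pyraclostrobin step for which these genes were chosen. A change in them was harder to detect for that reason. With low and high concentrations fitted as separate levels, 3 effector genes had an unadjusted p under 0.05 by the same test (1173 of all genes had). None of the 38 was called there either. The 0 calls thus do not show that trifloxystrobin left these genes unchanged.

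With picoxystrobin at 30 to 300 nM, 4 effector genes passed the test against DMSO, 3 libraries against 2. Bbc3 fell by 0.72 on the log2 scale (SE 0.14, adjusted p = 0.00562), from 14.6 ± 1.25 CPM (SD, n = 2) with DMSO to 8.82 ± 1.27 CPM (SD, n = 3) by edgeR. Epha2, an ephrin receptor tyrosine kinase, fell by 0.41 (SE 0.11, adjusted p = 0.0178), from 28.6 ± 1.73 to 21.5 ± 0.56 CPM. Gadd45a rose by 0.65 (SE 0.15, adjusted p = 0.011), from 38.3 ± 3.13 to 60.3 ± 8.95 CPM, and Rps27l rose by 0.77 (SE 0.20, adjusted p = 0.0178), from 137 ± 20.5 to 235 ± 40.2 CPM. All 3 libraries lay outside the DMSO range in each of these genes. On mm10, Bbc3 lies on chromosome 7 from 16308393 to 16318205, Epha2 on chromosome 4 from 141301240 to 141329384, Gadd45a on chromosome 6 from 67035096 to 67037457 and Rps27l on chromosome 9 from 66946086 to 66949516. Gadd45a overlaps the noncoding E230016M11Rik on the opposite strand, and whether the counting used the strand is not given in the sources used here.

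The 2 genes higher and 2 lower of 38 compare with 9.13% of all genes higher and 10.1% lower, a share of 38 genes no higher than that of genes at large. Their median fitted log2 change was -0.04, beside -0.01 for all genes. The spread of this fit also took in the pyraclostrobin step for which the effector genes were chosen. A change in them was thus harder to detect, and the shares are not on equal terms. For Epha2, the DMSO libraries held 29.8 and 27.4 CPM, the pyraclostrobin libraries 23.1, 23.3, 28.4 and 25.2 CPM, the picoxystrobin libraries 21.8, 20.9, 21.9 and 36.3 CPM, the trifloxystrobin libraries 26.5, 27.6, 26.03 and 23.4 CPM and the azoxystrobin library 25.2 CPM. The level of Gadd45a was 36.1 and 40.5 CPM with DMSO, 44.6 CPM with azoxystrobin, 51.7, 59.6, 69.6 and 79.1 CPM with picoxystrobin, 46.3, 55.04, 57.7 and 59.6 CPM with pyraclostrobin, and 54.9, 38.1, 44.99 and 48.4 CPM with trifloxystrobin. Epha2 at 1000 nM picoxystrobin was the highest of all libraries, as Bbc3 was, and Gadd45a was highest at 1000 nM picoxystrobin too, with a value above that of every pyraclostrobin library.

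The picoxystrobin libraries at 30 to 300 nM differed from the others in how their changes followed the base composition of the transcripts. Across the 13929 of 14004 genes with a known GC content, the log2 change from DMSO had a Pearson correlation with GC content of -0.53, -0.60 and -0.67 in the 30, 100 and 300 nM picoxystrobin libraries, against 0.17 at 1000 nM and -0.31 to -0.04 in the other exposed libraries. Over the 38 effector genes it was -0.70, -0.64 and -0.72, computed across genes that share 1 library and are not replicates. Bbc3 has a GC content of 65.2% and Epha2 of 56.9%, Gadd45a of 49.8% and Rps27l of 43.1%. With an offset for GC content and length fitted in every library, none of the 38 was called, beside 1.67% of all genes in either direction: the log2 change was -0.28 for Bbc3 (adjusted p = 0.27), -0.06 for Epha2 (adjusted p = 0.863), 0.58 for Gadd45a (adjusted p = 0.0583) and 0.41 for Rps27l (adjusted p = 0.2). The part of base composition in these 4 changes was not tested further, and that of Gadd45a moved by little. With the picoxystrobin 300 nM library left out Bbc3 alone was called (5.36% of all genes), and without the first DMSO library none was (0%).

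**Figure D4:**
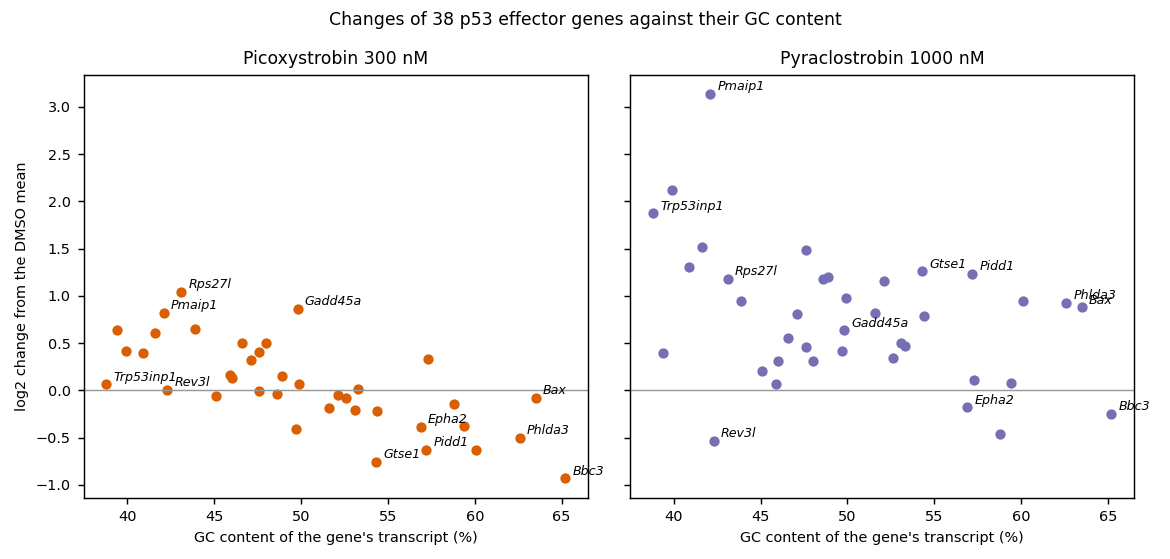
Log2 change from the DMSO mean (vertical axis) of the 38 p53 effector genes against the GC content of their transcripts in percent, for picoxystrobin 300 nM and pyraclostrobin 1000 nM, 1 point per gene. With picoxystrobin 300 nM the points slope down from Rps27l to Bbc3 (r = -0.72), and with pyraclostrobin 1000 nM genes rich in GC such as Bax and Phlda3 stand above 0 beside genes poor in GC such as Pmaip1 (r = -0.39).

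At 1000 nM, picoxystrobin gave a single library in which 14 effector genes were 1.5-fold or more above DMSO, with no replicate check. Its largest log2 changes were 1.25 for Pmaip1, 1.16 for Gtse1, 1.12 for Psrc1, 1.05 for Gadd45a and 0.98 for Trp53inp1. Pyraclostrobin at 1000 nM gave 3.14, 1.26, 1.16, 0.64 and 1.87 for the same genes, against the same DMSO libraries. The correlation with GC content was 0.11 over the 38 genes in this picoxystrobin library, and the count stood at 12 of 38 (4.86% of all genes) with the trend on GC content and length taken out, an alternative chosen after seeing the data. Pltp was the 1 gene of the 14 under 1.5-fold with pyraclostrobin, with 0.64 against 0.11 at an average of 6.29 CPM.

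**Figure D5:**
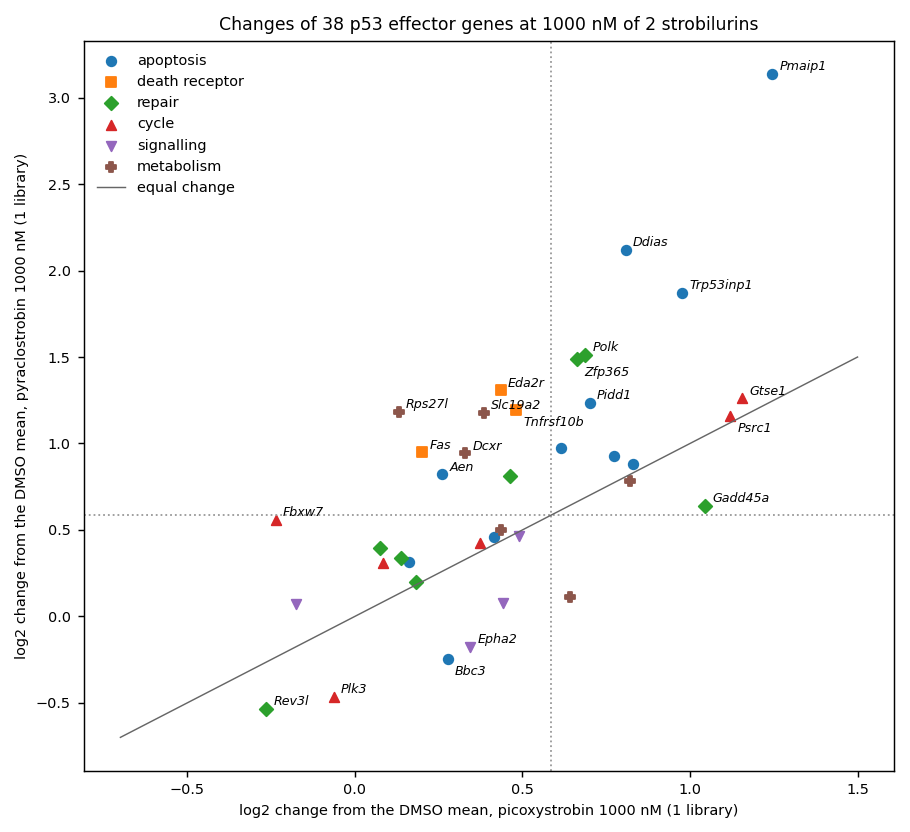
Log2 change from the shared DMSO mean at 1000 nM pyraclostrobin (vertical axis) against 1000 nM picoxystrobin (horizontal axis) for the 38 p53 effector genes, 1 library each, marked by role. Dotted lines mark 1.5-fold, and the line marks equal change. Pmaip1 (1.25 and 3.14) lies far above the line, Gtse1 and Psrc1 lie on it, and Gadd45a, Epha2 and Bbc3 lie below it.

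Set against each other at 1000 nM, pyraclostrobin was 1.5-fold or more above picoxystrobin in 12 of 38 effector genes (8.56% of all genes) and 1.5-fold below in none. The largest differences were those of Pmaip1 (1.89 on the log2 scale), Ddias (1.31), Rps27l (1.05) and Trp53inp1 (0.90), and on the other side Pltp (-0.53), Epha2 (-0.52) and Bbc3 (-0.52) were higher with picoxystrobin. At 300 nM the count was 21 of 38 (9.59% of all genes), with Gtse1 farthest apart at 1.72. Against trifloxystrobin, pyraclostrobin was 1.5-fold or more above in 21 of 38 at 300 nM (7.45%) and in 20 of 38 at 1000 nM (9.1%), where Pmaip1 differed by 2.68.

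A fit over the 3 compounds at the 4 matched concentrations, with concentration as a block, compared 3 pairs. Over all 4 concentrations no effector gene was called between pyraclostrobin and trifloxystrobin (0.0143% of all genes) or between pyraclostrobin and picoxystrobin (0.0143%), and DESeq2 called 3 and 0. The fitted differences of Pmaip1 were 1.52 (SE 0.34) from trifloxystrobin and 1.25 (SE 0.33) from picoxystrobin, those of Ddias 0.93 (SE 0.31) and 0.85 (SE 0.30), and those of Eda2r 0.73 (SE 0.14) and 0.54 (SE 0.13). These contrasts hold the rise that chose the genes and are given as a description. The 30 and 100 nM libraries enter them with the others, and there the median difference from trifloxystrobin was 0.10 and 0.04 over the 38 genes against 0.66 and 0.61 at 300 and 1000 nM.

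Between trifloxystrobin and picoxystrobin no effector gene was called by edgeR (0% of all genes), with 1 effector gene and 1167 of all genes at an unadjusted p under 0.05, and none of the 38 by DESeq2, which called 2 genes in all. The spread of this fit also took in the pyraclostrobin libraries and their step, so a change in these genes was harder to detect. The difference was largest for Gadd45a, 0.46 lower with trifloxystrobin on the log2 scale (95% interval -0.74 to -0.18, adjusted p = 0.588). It was next largest for Rps27l, with -0.43 (95% interval -0.86 to 0.00, adjusted p = 0.588). At 1000 nM alone, 8 effector genes were 1.5-fold or more lower with trifloxystrobin than with picoxystrobin (4.43% of all genes), led by Gtse1 (-1.05), Pidd1 (-0.92) and Psrc1 (-0.88). Restricted to 30 to 300 nM, the fit called Bbc3, 0.58 higher with trifloxystrobin, beside 3.25% of all genes in either direction, a share that 1 of 38 does not exceed.

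Other genes of the pathway were read from lists. Over all genes, 3.35% were called higher and 5.25% lower with pyraclostrobin, and 9.13% and 10.1% with 30 to 300 nM picoxystrobin. Of 13 measured genes of p53 feedback and arrest, 2 (Ccng1 and Ier3) were called higher and 1 (Trp53 itself, -0.51) lower with pyraclostrobin, and 1 (Rchy1) was higher and 2 (Trp53, -0.58, and Sesn2) lower with 30 to 300 nM picoxystrobin. The Trp53 transcript was below the DMSO mean in every exposed library. In order of concentration, its log2 changes were -0.38, -0.29, -0.75 and -0.62 with pyraclostrobin and -0.45, -0.53, -0.75 and -0.17 with picoxystrobin. They were -0.22 to -0.16 with trifloxystrobin and -0.06 with azoxystrobin. The calls with 30 to 300 nM picoxystrobin came from the libraries whose changes followed GC content. At 1000 nM pyraclostrobin the log2 change was 2.57 for Ccng1, the p53-induced cyclin of the G type, 1.81 for Cdkn1a, the p21 inhibitor of cyclin-dependent kinases, and 1.62 for Trp53cor1, the lincRNA-p21 transcript, and with 1000 nM picoxystrobin it was 1.23, 1.33 and 0.71. With trifloxystrobin, 0 of the 13 were called (0% of all genes).

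Repair and death machinery outside the p53 effectors was read in the same way, beside 3.35% of all genes called higher and 5.25% lower with pyraclostrobin. Of 13 other genes of nucleotide excision repair, 1 (Cetn2, 0.71) was higher and 1 (Ercc2, -0.72) lower with pyraclostrobin, and the median was -0.14. Of 7 genes of translesion synthesis and ribonucleotide reductase none was called, although Rrm2 and Rrm1, subunits of ribonucleotide reductase, had log2 changes of 1.46 and 0.86 at 1000 nM pyraclostrobin. Of 25 measured genes of the apoptosis machinery, 3 were called higher, among them Casp8 (0.44), and none lower with pyraclostrobin, with a median of 0.09. With 30 to 300 nM picoxystrobin, 3 excision repair genes and 1 translesion gene (Mad2l2) were lower, and of the apoptosis genes 1 (Casp8) was higher and 2 lower. Of all genes, 9.13% were called higher and 10.1% lower there, in libraries whose changes followed GC content.

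Genes of the integrated stress response, the programme of the factor ATF4, went the other way from the effectors at the same libraries. Their median log2 change was -0.87 and -0.96 at 300 and 1000 nM pyraclostrobin over 17 genes, with Chac1 at -2.36 and -2.77. Atf3 was higher there, at 0.99 and 0.82. They were low as well at 100 nM trifloxystrobin, with a median of -0.73 and Chac1 at -3.17, where no effector gene was 1.5-fold above DMSO. At 30 nM the median of the 17 genes was -0.49 with pyraclostrobin, -0.42 with picoxystrobin and 0.43 with trifloxystrobin. At 1000 nM picoxystrobin it was 0.14. Their changes were thus not confined to the libraries in which the effectors rose. As a whole 0 were called higher and 2 lower (Slc3a2 and Cebpb) with pyraclostrobin, beside 3.35% and 5.25% of all genes. The DMSO libraries themselves had medians of -0.17 and 0.17.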

How the data were processed

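Total RNA of C17.2α cells was sequenced in 16 libraries. The authors aligned the reads with Bowtie2 (version 2.3.2.2, to mm10, per the submitters' processing notes) and deposited raw counts per gene symbol from htseq-count; the annotation and strand setting are not given in the sources used here. The azoxystrobin 100 nM table was identical to the second DMSO table in every gene and was dropped. Counts were tested with edgeR 4.0.16 (quasi-likelihood, TMM scaling, genes with a mean CPM of 1 or more, Benjamini-Hochberg adjustment over 14004 genes) in R 4.3.3, where the study had used DESeq2. One fit held levels for DMSO (2 libraries), azoxystrobin (1), picoxystrobin 30 to 300 nM (3), picoxystrobin 1000 nM (1), pyraclostrobin (4) and trifloxystrobin (4). A second held 12 libraries with compound and concentration as terms. P-values measure the spread between these libraries, which includes any effect of concentration and may otherwise be technical. Log2 changes of single libraries used a prior count of 2 against the mean of the DMSO libraries, and no p-value was attached to them. Both fits were tested on simulated data with the same change at every concentration of a compound. A step between concentrations, as seen with pyraclostrobin, was not simulated.

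The effector genes and the pathway and marker lists were chosen with earlier results of these data known. Genes were given library by library where they were highest in their role at 300 and 1000 nM pyraclostrobin (3 genes, or 2 in roles of 6 or fewer), lowest there (3 genes), or called in a contrast that had not chosen them (at most 6). Of the lists, at most 3 genes with the largest change were named, together with those called; a few list genes are not reported here. Alternatives were DESeq2 1.42.0, RLE scaling, other filters and levels, an offset for GC content and length (GENCODE M21), and each library left out. Depth, 12292390 to 18188099 reads, gives at least 37 reads in each library for each of the 38 genes tested.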

Additional observations from a re-analysis of the deposited data

How the results depend on the processing

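Rescaling by RLE and a minimum of 10 CPM, which kept 32 of the 38 genes, left every count of effector genes called within 1.5 times. The percentages are the shares of all genes called in the same fit, in either direction. Against DMSO, pyraclostrobin had 10 calls in all (8.6%), which became 23 with no filter on low counts (8.13%), 4 with the GC and length offset (4.45%), 0 with the 1000 nM picoxystrobin library in one level with 30 to 300 nM (1.31%), and 27 when the 300 and 1000 nM libraries formed a level of their own (40.3%). Picoxystrobin at 30 to 300 nM had 4 (19.2%), which became 11 with no filter (9.17%), 0 with the offset (1.67%) and 0 with 1000 nM in the same level (0.0286%). Over matched concentrations the 0 calls became 16 with no filter (2.72%) and 3 by DESeq2 (1.67%) for pyraclostrobin against trifloxystrobin. They became 15 with no filter (1.38%) and 5 at 30 to 300 nM only (3.98%) for pyraclostrobin against picoxystrobin, and 1 with no filter (0.0933%) and 1 at 30 to 300 nM only (3.25%) for trifloxystrobin against picoxystrobin. With each library left out in turn the counts ranged from 0 to 21 for pyraclostrobin, 0 to 5 for picoxystrobin, 0 to 6 for pyraclostrobin against trifloxystrobin, 0 to 1 for trifloxystrobin against picoxystrobin, and stayed at 0 for trifloxystrobin and for pyraclostrobin against picoxystrobin. The 6 calls came without the 100 nM trifloxystrobin library (2.09%). Pvt1, at 0.03 on the log2 scale with pyraclostrobin, turned to -0.046 with the offset and ranged from -0.024 (without the 300 nM pyraclostrobin library) to 0.081 with libraries left out. Except as stated, the cause was not tested. No paired analysis was possible because the replicate numbers of DMSO match no other group; concentration, which did match, was the block of the matched fit, and without that block the 3 counts stayed at 0. With 1 library at each concentration and 2 of DMSO, a change at a single concentration cannot be tested, and the common spread includes the effect of concentration.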

Other observations

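Markers of the oligodendrocyte lineage split in all 15 distinct libraries. Sox10, a factor of neural crest and oligodendrocyte precursors, was at 154 to 287 CPM. Mbp and Mog, genes of mature myelin, were at 0.9 to 2.7 CPM and 0.1 to 0.5 CPM. Sox10 was called lower with 30 to 300 nM picoxystrobin by edgeR (-0.57 on the log2 scale, adjusted p = 0.0108), in the libraries whose changes followed GC content, and was at 287 CPM with 1000 nM picoxystrobin.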
